A study of Homo sapiens with 1 sample.

Results

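The genes examined were the olfactory receptor (OR) genes of human chromosome 11, taken from the GENCODE release 44 annotation of hg38 as the protein-coding genes whose symbol is OR, digits, letters and digits. The rule gave 172 genes of 20033 protein-coding genes on the 24 primary chromosomes. Each gene was set against the ATAC-seq peak list of 786-O cells, a line established from a human clear cell renal cell carcinoma (ccRCC). The cells carried an empty vector and served as the control for cells overexpressing DPF3a, a subunit of the SWI/SNF chromatin remodeling complex; the overexpressing cells were not analysed here. There was 1 library, so no value below has a replicate error and no test between conditions was possible. ATAC-seq marks open chromatin by the ends at which the transposase Tn5 cuts and tags the DNA, and a peak summit is the position within a peak at which most fragments pile up.

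Olfactory receptors are G protein-coupled receptors that bind odorants, and a mature olfactory sensory neuron expresses a single receptor allele out of the whole family. Class I genes are the fish-like receptors and class II genes the tetrapod-type receptors, and both kinds lie in tandem arrays. In olfactory neurons the arrays that are not chosen are packed in heterochromatin that carries histone H3 lysine 9 methylation and HP1 proteins, and most other tissues keep the family silent.

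The 172 genes belonged to 11 families and comprised 55 class I genes (families 51, 52 and 56) and 117 class II genes (families 1, 2, 4, 5, 6, 8, 9 and 10). Genes less than 500 kb apart were joined into 10 clusters, numbered from the short arm end, which held 171 of the genes and 5.91 Mb. All 55 class I genes lay in cluster 1, chr11:4367263-6200186, from OR52B4 to OR52W1. The largest class II array was cluster 7, chr11:55343201-56989843, with 48 genes from OR4A16 to OR5AK2. OR2AT4, a receptor for a sandalwood odorant, lay alone at chr11:75081753-75096876.

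A promoter was taken as open when a summit lay from 1 kb upstream to 100 bp downstream of any annotated transcription start site (TSS). By this measure 2 of the 172 genes had an open promoter, or 1.16% (exact 95% binomial interval 0.141 to 4.14%), against 61.4% of all protein-coding genes and 63.1% of the 1145 other protein-coding genes of chromosome 11. With canonical transcripts alone the count was again 2 of 172, against 52.2% of all genes. Intervals here cover counting error only, and neighbouring genes of an array share their surroundings. A promoter without a summit is one below the floor of the list, whose weakest peak had a fold enrichment over background of 5.15, equal to a pileup of 9 fragments (counting interval of the fold 2.64 to 9.32).

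Both open promoters belonged to class I genes of cluster 1. OR51D1 (ENSG00000197428.3, plus strand, chr11:4637477-4643060) had a summit at position 4637109, 368 bp upstream of its TSS and outside the transcript. The fold enrichment there was 12.4 (counting interval 8.03 to 18.3) at a pileup of 23 fragments, higher than 56% of all peaks. OR52N2 (ENSG00000180988.3, plus strand, chr11:5808924-5821483) had a summit at position 5808507, 417 bp upstream of its TSS, with a fold of 6.18 (3.34 to 10.7) at a pileup of 11, higher than 16.4% of all peaks. That position also lay within the long record of another protein-coding gene, TRIM5. The OR51D1 peak thus stood near the middle of the list and the OR52N2 peak near its floor, and with peaks of score above 100 only OR51D1 was left. In both genes the start codon lay downstream of the annotated TSS, by 2314 bp in OR51D1 and by 11412 bp in OR52N2.

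The 101 bases centred on these 2 summits are given with the GC content of 57.4% for OR51D1 and 49.5% for OR52N2, since they are the only OR promoters that held a summit. They span chr11:4637059-4637159 and chr11:5808457-5808557 on the plus strand of hg38. Capitals mark a match to the core of the motif bound by the insulator protein CTCF, searched on both strands.
OR51D1 promoter summit: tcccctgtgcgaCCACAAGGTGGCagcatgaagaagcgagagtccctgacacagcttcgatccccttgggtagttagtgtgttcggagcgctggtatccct
OR52N2 promoter summit: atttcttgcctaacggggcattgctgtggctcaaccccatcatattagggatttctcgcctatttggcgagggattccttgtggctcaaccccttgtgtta
Only the OR51D1 window held the motif. It occurred at 3 of the 70 summits in the clusters (4.29%, 0.893 to 12.0%), against 3.62% of all summits.

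The other 2 matches were intergenic. They were 11057 bp from the OR51D1 TSS at a fold of 7.21 and, in cluster 5, 13255 bp from the TSS of OR4C12 at a fold of 7.73. Their windows, chr11:4626370-4626470 and chr11:49995740-49995840, are shown beside the OR51D1 window for comparison of the motif, in capitals, which is on the minus strand in the second.
cluster 1 intergenic summit: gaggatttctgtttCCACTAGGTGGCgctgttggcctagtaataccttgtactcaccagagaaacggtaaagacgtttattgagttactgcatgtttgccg
cluster 5 intergenic summit: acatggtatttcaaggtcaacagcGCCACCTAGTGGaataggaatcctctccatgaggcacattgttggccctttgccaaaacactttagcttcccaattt
A match of letters is a description and not a measured binding site. TGANTCA, the core bound by AP-1, was found at 12 of the 70 cluster summits (17.1%, 9.18 to 28%) and at 17700 of all 88615 summits.

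The receptors without an open promoter were mostly far from any peak. The distance from the TSS to the nearest summit had a median of 43656 bp over the 172 genes, with quartiles of 16858 and 106203 bp and a range from 165 to 1054186 bp. The median was 154 bp over all protein-coding genes and 149 bp over the other genes of chromosome 11. A summit lay within 10 kb of 23 OR genes (13.4%), against 79.9% of all genes, and 47 OR genes had none within 100 kb. The 172 genes shared 52 nearest summits, which for 153 genes lay inside a cluster and for 19 outside, so these distances are not independent of each other.

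**Figure D1:**
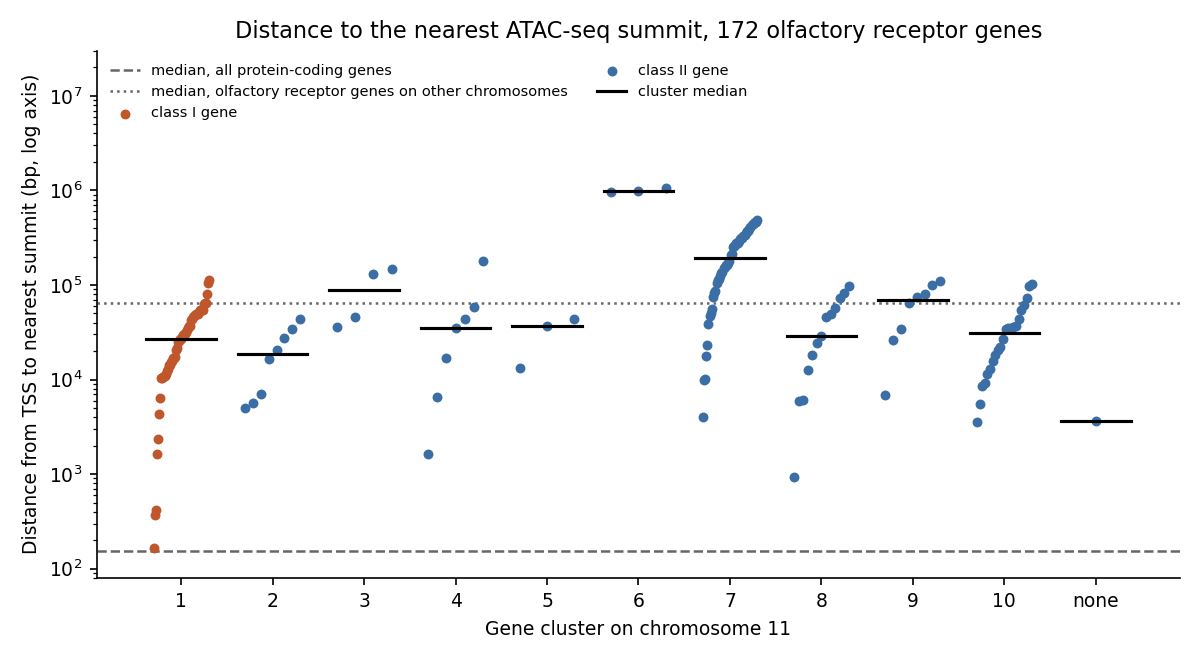
Distance in bp (log axis) from each OR gene's TSS to its nearest ATAC-seq summit, 1 point per gene by cluster, with black bars for cluster medians and lines for the medians of all protein-coding genes (154 bp) and of OR genes on other chromosomes (65112 bp). Cluster 6 lies highest, with its 3 genes between 951352 and 1054186 bp, and all 172 points lie above the line for all protein-coding genes.

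Among the genes without an open promoter, 5 had the nearest summits. OR51B2 had one 165 bp inside its transcript, past the promoter window, at a fold of 5.15, the lowest in the list. It was the only OR gene with a summit in its coding sequence. OR9Q1 (chr11:58023881-58181616) had one 926 bp downstream of its TSS at a fold of 18.6. For OR51F2 the nearest summit was 1643 bp away at a fold of 9.28, for OR4S1 1645 bp at 7.73, and for OR52H1 2351 bp at 23.2. The OR51F2 summit lay in the body of MMP26, a matrix metalloproteinase gene, and the OR52H1 summit in the body of the read-through gene model ENSG00000239920.

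OR9Q1 had the most summits over its gene record, 5, and its TSS is annotated 155564 bp upstream of its start codon. The strongest of them reached a fold of 36.6 at position 58062045, and all 5 lay upstream of the coding exon. OR51B5, also with a long record, held 4 summits and OR52K1 held 1, so 4 of the 172 genes had any summit within their record. Over the summed coding spans of all OR genes, 0.170 Mb, the single summit in OR51B2 gave 5.88 summits per Mb (0.149 to 32.7).

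The 5 genes farthest from a summit were OR4C46 at 1054186 bp, OR4A8 at 975307 bp and OR4A5 at 951352 bp, all of cluster 6, then OR8J3 at 482017 bp and OR8K5 at 464573 bp in cluster 7. Their promoters held 94.8 to 100% uniquely placed 100-base words, a measure of how well reads can be mapped. The 250 bases upstream of the RefSeq start (GRCh38.p14, minus strand) of the farthest gene in each of the 2 clusters are shown as examples of promoters far from open chromatin, OR4C46 at chr11:54603999-54604248 and OR8J3 at chr11:56140202-56140451. Capitals mark TAATTA, the core bound by homeodomain factors, and the AP-1 core.
OR4C46 upstream: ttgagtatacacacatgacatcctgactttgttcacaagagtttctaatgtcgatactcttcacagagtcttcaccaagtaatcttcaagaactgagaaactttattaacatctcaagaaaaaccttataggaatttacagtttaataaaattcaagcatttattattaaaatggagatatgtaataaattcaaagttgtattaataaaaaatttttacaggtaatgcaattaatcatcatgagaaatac
OR8J3 upstream: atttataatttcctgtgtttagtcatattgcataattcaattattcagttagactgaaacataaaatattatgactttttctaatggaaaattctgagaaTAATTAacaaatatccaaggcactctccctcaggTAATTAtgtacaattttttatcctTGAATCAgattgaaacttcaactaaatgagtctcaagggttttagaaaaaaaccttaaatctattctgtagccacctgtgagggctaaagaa
Their GC content was 27.2% and 29.2%.

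Homeodomain and EBF factors bind OR promoters in olfactory neurons, so their motifs were counted in promoters of all 172 genes, from 250 bases before to 50 after the canonical TSS. TAATTA was present in 37 OR promoters (21.5%, 15.6 to 28.4%) against 3.04% of all protein-coding promoters. The shares were alike in class I (11 of 55) and class II (26 of 117). The EBF core was present in 2 OR promoters (1.16%), those of OR52E5 and OR8J2, against 1.35% of all promoters. TAATTA is made of A and T alone, and OR promoters were poor in GC, so the higher share moved with base composition, whose part was not tested.

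OR promoters had a median GC content of 36.2% (range 27.2 to 51.9%), against 54.6% over all protein-coding genes. OR51D1 had the highest value of the family on this chromosome, 51.9%, and OR52N2 had 47.0%. Of the 64 OR promoters under 35% GC, none was open, which allows a share of up to 4.69%, against 16.8% of 352 promoters of other protein-coding genes in that band. From 35 to 40% GC the counts were 0 of 72 (up to 4.17%) against 25.6% of 835, and from 40 to 45% GC 0 of 28 (up to 10.7%) against 40.5% of 1614. Among the other genes of chromosome 11 alone, the shares in these 3 bands rested on fewer genes. They were 22.2% of 9 (2.81 to 60.0%), 10.6% of 66 (4.37 to 20.6%) and 35.8% of 95 (26.2 to 46.3%). From 45 to 50% GC 1 of 5 OR promoters was open (interval 0.505 to 71.6%), against 57.3% of 2894, and above 50% GC 1 of 3 (0.840 to 90.6%), against 69.7% of 13925. With the other genes weighted to the GC bands of the OR genes, 26.4% of them had an open promoter by any TSS and 17.2% by the canonical transcript. The OR share, 1.16% by either measure, was below both. Other genes have more annotated starts, with a median of 5 TSS over all protein-coding genes against 1 over the OR genes.

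**Figure D2:**
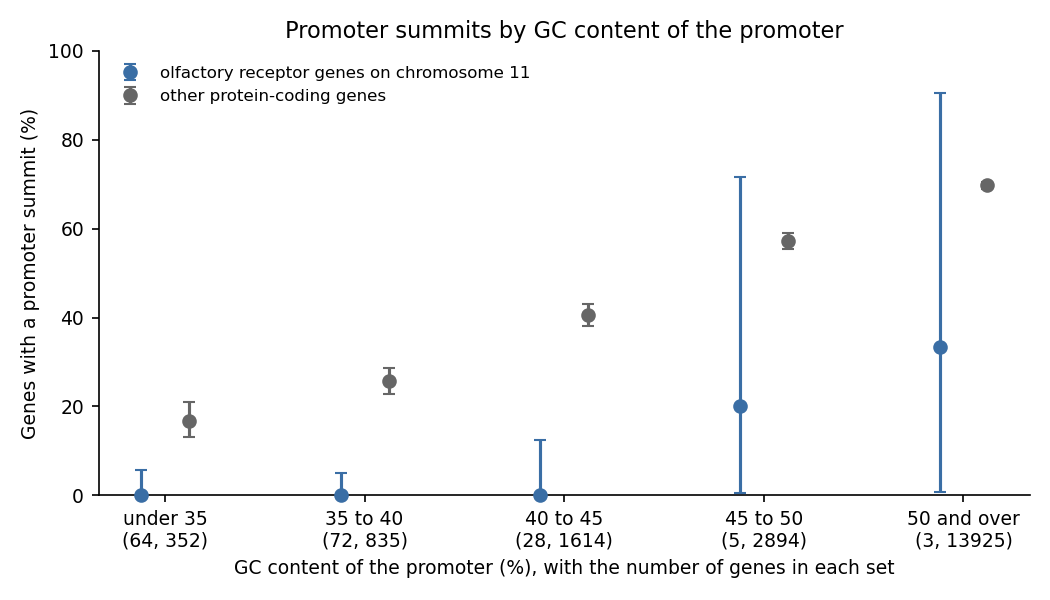
Share of genes with a promoter summit (%) by GC content of the promoter (%), for OR genes of chromosome 11 (blue) and other protein-coding genes (grey), with exact 95% binomial intervals and the 2 numbers of genes under each band. In the 3 bands under 45% GC no OR promoter was open, and the other genes stood at 16.8, 25.6 and 40.5%.

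The annotated starts of OR genes were often incomplete. In 82 of the 172 genes (47.7%) the annotation started at the start codon, against 2.96% of all protein-coding genes, so their true promoters may lie elsewhere. None of these 82 had an open promoter, which allows up to 3.66%, against 89 of 423 other genes annotated in the same way (21.0%). A window of 10 kb upstream of the TSS, wide enough for many missing first exons, held a summit for 15 OR genes (8.72%) against 74.1% of all genes. The 15 included OR51E1, a receptor known from prostate tissue, whose nearest summit was the one at the OR51D1 promoter, 6311 bp away. The related OR51E2, a short-chain fatty acid receptor expressed in kidney and prostate, had its nearest summit 47983 bp away. These last 2 genes were chosen after their values were seen.

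Mappability moved with the counts in part of the arrays. Reads with a mapping quality under 30 were removed, and the reference used here holds alternative copies of parts of chromosome 11, on which reads from either copy cannot be placed uniquely. All of cluster 3 and 22.7% of cluster 7 had such a copy, covering 16 OR genes, and 0 summits fell in the 0.519 Mb concerned, which allows up to 5.78 per Mb, against 2.92 per Mb in the other copied parts of chromosome 11. The sources used here do not say whether the peaks were called against a reference with these copies. However, 3 peaks of the list lay on alternative sequences of chromosome 11, so that reference held at least some alternative sequences. Among the 154 OR genes whose promoters held at least 90% unique words, 2 were open, against 65.9% of all such genes.

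Summits were also sparse across the arrays as a whole. The 10 clusters held 70 summits, or 11.8 per Mb (exact 95% Poisson interval 9.23 to 15.0), against 31.6 per Mb (30.6 to 32.6) in the rest of chromosome 11 and 31.3 per Mb (28.3 to 34.5) within 1 Mb on either side and outside other clusters, the flanks. The ratio to the rest of the chromosome was 0.375 (0.292 to 0.474). Without sequence that has an alternative copy, it was 0.407. Setting the clusters against their own chromosome avoids differences in copy number between chromosomes, but not those within it, which are not known for these cells.

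Summed over the 10 clusters, the change in density stood at the cluster edges. Only the larger arrays reach the bins farthest in. Taken singly, clusters 5, 6 and 9 were not below their flanks in density. Within the clusters the density was 11.3 per Mb (6.78 to 17.6) in the outermost 100 kb and between 10.9 and 12.3 per Mb farther in. Outside it was 30.8 per Mb (23.6 to 39.6) in the first 100 kb and between 28.9 and 34.3 per Mb out to 1 Mb. Neither side showed a gradient beyond the counting intervals. The GC content also rose across the edge, from 38.5% in the outermost 100 kb to 40.1% in the first 100 kb outside.

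**Figure D3:**
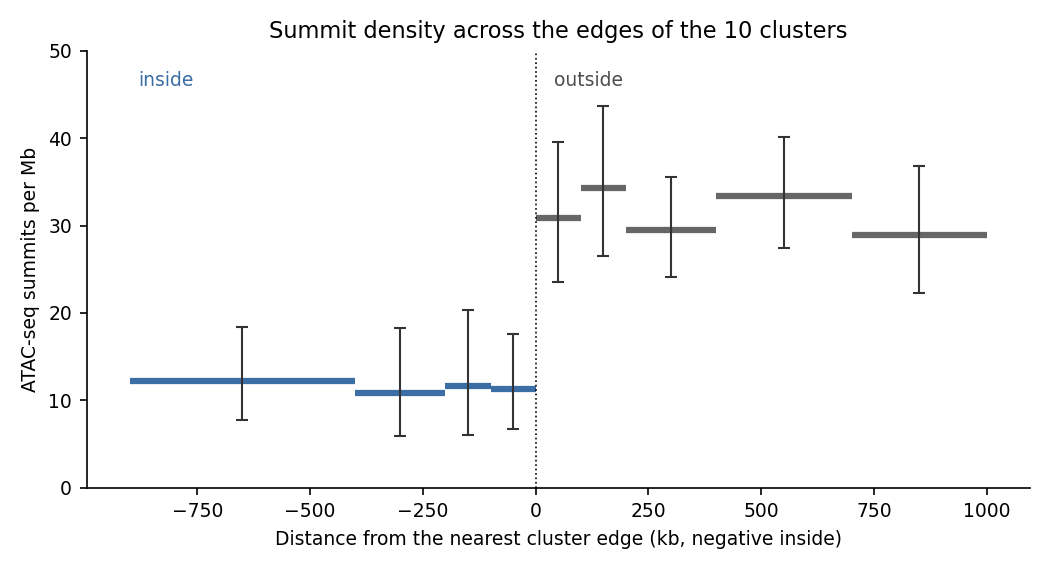
Summits per Mb against distance in kb from the nearest cluster edge (negative inside), summed over the 10 clusters, with exact 95% Poisson intervals at the middle of each bin. The 4 bins inside lie between 10.9 and 12.3 per Mb and the 5 outside between 28.9 and 34.3 per Mb.

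Base composition moved with density here as well. Of the chromosome's bins of 100 kb, 57 had at least 50% of their bases in a cluster, and they held 12.3 summits per Mb against 31.6 in bins clear of the clusters, a ratio of 0.388. With the outside bins weighted to the GC content of the cluster bins, the outside value was 17.6 per Mb and the ratio 0.699 (0.545 to 0.883). That interval covers the count of cluster summits alone. Among bins without an alternative copy, the weighted ratio was 0.737 (0.574 to 0.933). The part of base composition in the lower density was not tested. By band, the cluster and outside bins had 1.11 and 6.64 summits per Mb under 36% GC, 7.31 and 11.8 from 36 to 38%, 12.5 and 24.3 from 38 to 40%, and 31.1 and 32.6 from 40 to 42%. In this band, of 9 cluster bins, the densities were close, and above 42% GC the order was the other way, with 70 per Mb in a single cluster bin of 7 summits against 49.9 outside. No summit fell in 28 of the 57 cluster bins (49.1%, 35.6 to 62.7%), against 26.5% of 1271 outside bins.

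The clusters differed from one another. Cluster 7 was the emptiest of the large arrays, with 3 summits for 48 genes, or 1.82 per Mb (0.376 to 5.32), against 31.8 per Mb in its flanks. Cluster 1 held 31 summits for 55 genes, 16.9 per Mb (11.5 to 24), and its flanks 40.7. Cluster 8 had 9 summits (18.6 per Mb) from OR9Q1 to OR5B21, and cluster 10 had 11 (13.3 per Mb) from OR6X1 to OR8A1, with flanks of 48.6 and 49. In each of these 4 arrays the upper bound of the interval, including 35.3 in cluster 8 and 23.7 in cluster 10, lay below the value in its flanks.

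Cluster 9 was the exception, with 12 summits for 8 genes, 33.8 per Mb (17.5 to 59.1), next to 29.2 in its flanks. It runs from OR5AN1, a receptor for musk odorants, to OR10V1 and takes in the genes OSBP and PATL1 and the 5′ end of STX3. None of its 8 OR genes had a promoter summit, and their distances to a summit ran from 6810 bp (OR10V1) to 111095 bp. No summit fell in the first 178.6 kb, where 7 of its OR genes start, so all 12 lay in the remainder, which holds OSBP and PATL1.

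The remaining arrays were small. Cluster 2 had 2 summits, and its first and last genes, OR2AG2 and OR2D3, lay 16488 and 5604 bp from one. Cluster 4 had 1 summit, 1645 bp from OR4S1, while its last gene OR4A47 lay 180925 bp from any, and its first, OR4B1, lay 6563 bp from one just outside the cluster. Cluster 5 had 1 summit, 43399 bp from OR4C13 and 37084 bp from OR4C45. Clusters 3 and 6 had none, which allows up to 20.6 and 28.6 per Mb. Cluster 6, OR4C46 to OR4A5 beside the centromere, had no summit in the 1.54 Mb of its flanks outside other clusters either, the nearest being the one in cluster 7 that lay 951352 bp from OR4A5, and the flanks of cluster 5 held 1.12 per Mb, so these 2 arrays were not detectably emptier than their surroundings. In cluster 3, OR5P2 to OR10A3, 5.24% of the 100-base words were unique, and the part of mappability in its count was not tested.

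**Figure D4:**
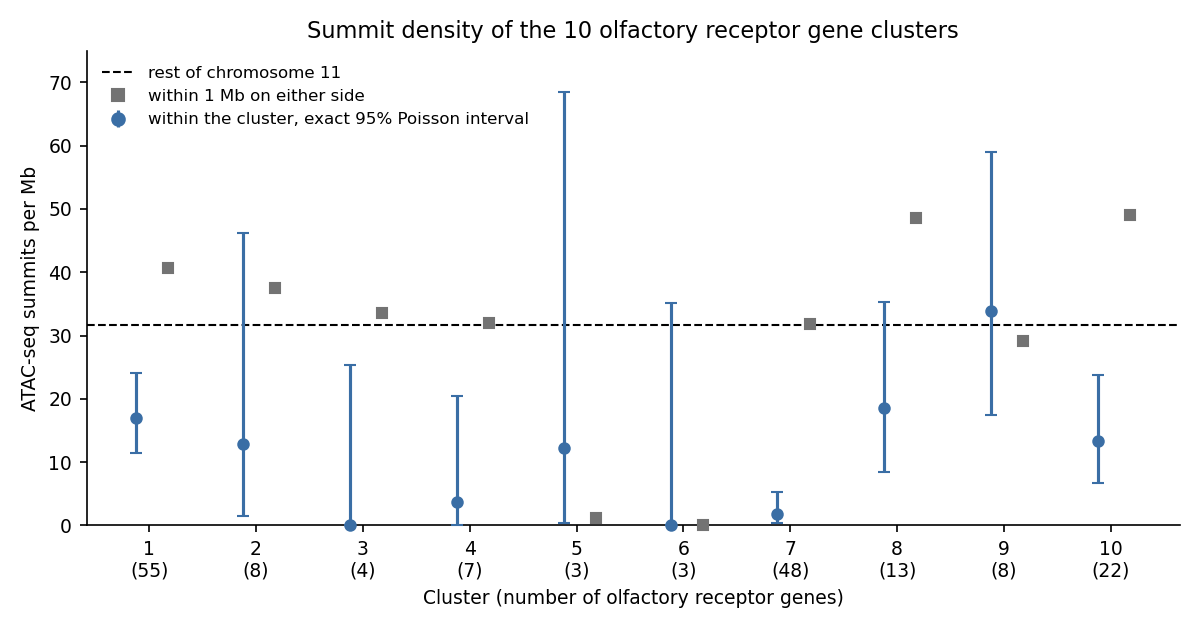
Summits per Mb in each of the 10 clusters (blue, exact 95% Poisson interval, number of OR genes in parentheses), in its flanks of 1 Mb on either side outside other clusters (grey squares) and in the rest of chromosome 11 (dashed line, 31.6). Cluster 7 stands at 1.82 with flanks at 31.8, and cluster 9 alone, at 33.8, stands above the line.

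The emptiest run of OR genes was in cluster 7. No summit lay between positions 55658184 and 56624890, 966.7 kb that hold the starts of 35 OR genes, from OR4C6 to OR5M1, and of 2 other protein-coding genes, TRIM51 and ENSG00000284732. It was the fourth longest stretch of chromosome 11 between neighbouring summits. The longest, 5578 kb across the centromere, held 10 OR genes and the second, 1688 kb, held 5, so 50 of the 172 genes started in 3 of the 10 longest stretches. An alternative copy covered 9 OR genes of the 966.7 kb stretch.

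The summits that bound this stretch are shown because they are 2 of only 3 summits in the array, at chr11:55658134-55658234 and chr11:56624840-56624940. The first had a fold of 5.15 and holds the AP-1 core, in capitals, 4017 bp from the TSS of OR4C6. The second had a fold of 22.7, 10016 bp from the TSS of OR5M1, and holds none of the 4 motifs.
cluster 7 left summit: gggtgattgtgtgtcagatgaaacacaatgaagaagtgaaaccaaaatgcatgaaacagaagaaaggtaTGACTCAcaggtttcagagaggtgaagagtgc
cluster 7 right summit: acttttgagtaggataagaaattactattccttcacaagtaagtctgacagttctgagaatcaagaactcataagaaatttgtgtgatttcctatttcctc
The third summit of the cluster lay at position 56933099, 55815 bp from OR5AK2, with a fold of 10.8.

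Of 24 other protein-coding genes in the clusters, 12 had a promoter summit (50.0%, 29.1 to 70.9%), against 61.4% of all protein-coding genes and 63.1% of the other genes of chromosome 11, and 10 by the canonical transcript (41.7%), against 52.2%. The interval includes the shares over all genes. The open ones in cluster 1 included TRIM genes, which encode RING-type ubiquitin ligases, several of them acting in antiviral defence. TRIM5, which recognises retroviral capsids, had a fold of 57.2, TRIM68 52, TRIM21, a cytosolic antibody receptor, 28.3, and TRIM22 11.9. TRIM6 and its read-through TRIM6-TRIM34 shared a summit of fold 23.7, and TRIM34 and ENSG00000239920 shared one of 18.6. Of the open OR promoters, OR51D1 at 12.4 was near the lowest of these folds and OR52N2 at 6.18 was below it.

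In cluster 9, OSBP, an oxysterol-binding protein gene, had the strongest summit of all clusters, with a fold of 63.9 (53.2 to 76.1). PATL1, an mRNA decay factor, had 42.8, and STX3, a syntaxin, 21.6 at an alternative start beyond the end of the cluster. VWA5A in cluster 10 had 20.1. Without a promoter summit were, among others, MMP26 and TMEM225, and 6 further protein-coding OR genes with a P in their symbol, for which 0 of 6 allows up to 50.0%.

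**Figure D5:**
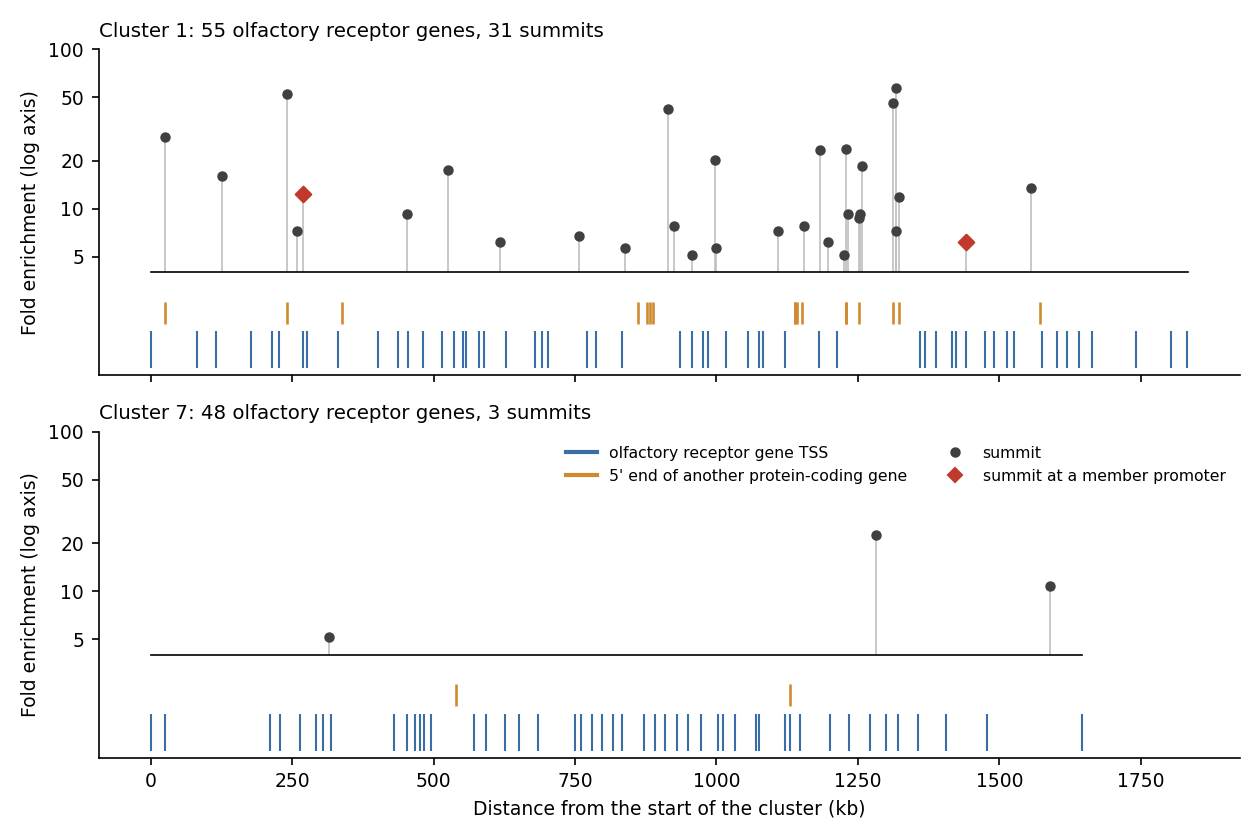
Clusters 1 and 7 drawn to the same scale in kb from the cluster start, with OR gene starts (blue ticks), 5′ ends of other protein-coding genes (orange ticks) and summits by fold enrichment (log axis; red diamonds at OR promoters). Cluster 1 holds 31 summits, of which 2 are at OR promoters with folds of 12.4 and 6.18, and cluster 7 holds 3.

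Each summit was given a single place, promoters before bodies and, within bodies, other protein-coding genes before OR genes and those before noncoding genes. By this order, 20 of the 70 cluster summits were intergenic, 18 lay in the body and 11 at the promoter of another protein-coding gene. A noncoding gene or pseudogene had 9 in the body and 5 at the promoter, and an OR gene 5 and 2. OR gene records held 10 summits, and those not counted in an OR body fell under another protein-coding gene or a noncoding promoter. The 10 strongest were at the promoters of OSBP (63.9), TRIM5 (57.2 and 45.9), TRIM68 (52), PATL1 (42.8), LINC02739 (39.7) and RN7SKP192 (36.6), and in the bodies of ENSG00000287264 (57.2), ENSG00000239920 (42.3) and OR9Q1 (36.6). None was at an OR promoter. Without the other protein-coding genes and 5 kb around them, the clusters held 39 summits, 8.38 per Mb (5.96 to 11.5), against 20.3 in the rest of chromosome 11 treated in the same way, a ratio of 0.414. Around the other genes the clusters held 24.7 per Mb, against 41.2. The long records of MMP26, ENSG00000239920 and TRIM5 in cluster 1 run over many OR genes, which were counted with these other genes. The 2 densities therefore do not divide OR sequence from that of other genes.

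The summits that did occur in the arrays were not clearly weaker. Their median fold was 9.02 (7.73 to 13.4), against 10.8 in the rest of chromosome 11, a ratio of 0.833 (0.714 to 1.24) whose interval includes 1. A pileup under 15 was seen at 32 of the 70 (45.7%), against 34.7% in the rest of the chromosome.

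Class I and class II genes were set side by side without a test, since all class I genes share cluster 1. Open promoters numbered 2 of 55 class I genes (3.64%, 0.443 to 12.5%) and 0 of 117 class II genes, which allows up to 2.56%. The median distance to a summit was 27032 bp in class I and 57538 bp in class II. By family, the median was shortest in family 2 (5 genes, 16488 bp) and family 51 (22 genes, 16849 bp) and longest in family 8 (23 genes, 206658 bp) and family 5 (35 genes, 133520 bp). Families 5 and 8 are the main families of cluster 7. Promoters with at least 90% unique words made up 82.9% of family 5 and 73.9% of family 8, against 100% of families 2 and 51.

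OR genes on other chromosomes and 2 other gene families were set beside these genes, without a test. On other chromosomes, 1 of 228 OR genes had an open promoter (0.439%, 0.0111 to 2.42%), OR1F1 on chromosome 16 with a fold of 8.76. Of 24 bitter taste receptor (TAS2R) genes 1 was open (4.17%, 0.105 to 21.1%), TAS2R1, and of 94 keratin-associated protein (KRTAP) genes of hair 1 was open (1.06%, 0.0269 to 5.79%), KRTAP4-6. TAS2R1 was open only at a start other than the canonical one, with a peak of fold 6.70 shared with LINC02112. By the canonical transcript 0 of the 24 TAS2R genes were open. Each share rests on 1 open gene, and the intervals are wide and overlap that of the chromosome 11 genes. Many of these genes lie in poorly mappable sequence. With at least 90% unique words the shares were 1 of 182, 1 of 10 and 1 of 61.

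The machinery around the receptors was looked at in 2 lists of genes. Of 14 genes of odorant signalling in olfactory neurons, 3 had an open promoter (21.4%, 4.66 to 50.8%), against 61.4% of all protein-coding genes. These were RIC8B, an exchange factor for the olfactory G protein, with a fold of 47.4, ADCY3, the olfactory adenylyl cyclase, with 7.73, and GNAL, the olfactory G protein alpha subunit itself, with 5.67. CNGA4, a channel subunit, had no summit within its promoter window, but one of fold 105.6 lay 115 bp away, just outside, and for CNGB1 one of fold 29.9 lay 296 bp away. The channel genes CNGA2 and ANO2, the exchanger SLC24A4, the marker OMP, the G protein subunit GNG13, the chaperones RTP1, RTP2 and REEP1, and STOML3 had no summit in the window, with nearest summits from 2051 bp (OMP) to 47079 bp (STOML3).

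Of 16 genes that act in receptor choice and silencing, 11 had an open promoter (68.8%, 41.3 to 89.0%), against 61.4% of all genes. They included all 3 HP1 genes, CBX3 (fold 44.3), CBX1 (21.6) and CBX5 (13.4). The lamin B receptor gene LBR, which tethers heterochromatin to the nuclear envelope, had 31.4. The histone lysine 9 methyltransferase genes SETDB1 and EHMT1 had 22.2 and 17.0, the demethylase gene KDM1A 26.3, ADNP 24.2, the LHX2 cofactor gene LDB1 21.1 and ATF5 17.0. EBF2 was open with a fold of 9.28. The CBX5 and ATF5 promoters were open only at starts other than the canonical one. The CBX3 peak was shared with HNRNPA2B1, that of KDM1A with TEX46 and that of EHMT1 with ARRDC1-AS1. ATF5 shared its peak with IL4I1 and NUP62. LHX2, EBF1, EBF3 and EBF4, factors that act on OR genes in neurons, had no promoter summit, with the nearest 2510, 1129, 1247 and 1414 bp away. EHMT2 had none either, but 0% of its promoter words were unique, and the part of mappability was not tested.

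Of 6 renal epithelial marker genes, 4 had an open promoter (66.7%, 22.3 to 95.7%), near the 61.4% of all protein-coding genes. These were KRT8 (43.3), PAX8 (31.9), PAX2 (22.7) and KRT18 (8.24). CDH6 had a summit 1300 bp away at a fold of 36.1. Of 6 olfactory neuron markers, 2 were open (33.3%, 4.33 to 77.7%), the genes GNAL and ADCY3 named above at folds of 5.67 and 7.73. Both intervals include the share over all genes, so neither count can check the label of the cells.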

How the data were processed

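ATAC-seq had been done on 1 library of 786-O cells with an empty vector, in a single group. According to the methods and processing notes, the authors used fastp for trimming and Bowtie2 2.3.4.3 for alignment to hg38, then removed reads of mapping quality under 30, mitochondrial reads and duplicates, and called peaks with MACS2 2.2.6 at a q-value of 0.05 without a local background. The depth of the library is unknown. The deposited peak list holds 88676 peaks, 88615 on the 24 primary chromosomes and 4134 on chromosome 11. Its columns, as deposited, are an integer score, the fold enrichment over background (a ratio), the −log10 p and q values, which were not used, and the summit offset. Peak numbers in the list ran up to 111260 and its lowest score was 52, so weaker called peaks appear to have been left out of it. A promoter without a summit may therefore have held a weaker called peak. The deposited folds moved in equal steps, which gave whole-number pileups over a background of 0.941.

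Genes and TSS came from GENCODE release 44. Summits were assigned with Python 3.11.15, numpy 2.4.6, pandas 2.3.3 and scipy 1.17.1. The assignment and the count of unique 100-base words, made over the whole reference with its alternative sequences, were tested on simulated data. Alternative copies were placed with minimap2 2.31 (at least 10 kb, at most 5% divergence). Shares have exact Clopper-Pearson and densities exact Poisson 95% intervals. A count of 0 was given the limit of 3 counts in the text. That limit is tighter than the upper end of the exact interval, which the figures draw, as with 2.56% against 3.10% for class II genes. Motifs were searched on both strands, and AP-1, CTCF, EBF and homeodomain cores were the 4 searched. RefSeq promoters matched 133 of the 172 genes by symbol.

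The text names each OR gene with a promoter summit, the 5 next nearest to and the 5 farthest from a summit, first and last genes of clusters, other genes of the clusters with a promoter summit, all genes of the pathway lists and the 10 strongest cluster summits. Values of some genes of the clusters and of the marker list are not reported here. The members and lists were chosen with earlier results of these data known. Alternatives were the score minimum, promoter window, transcript, peak overlap, cluster gap, unique sequence and, chosen after seeing the data, the subsets of clusters, alternative copies and GC weighting of densities. Comparisons with overexpressing cells were not analysed here.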

Additional observations from a re-analysis of the deposited data

How the results depend on the processing

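No paired analysis was possible because a single library was given. The share of OR genes with a promoter summit stayed between 0.581% and 4.07% under 8 alternatives and was 8.72% with 10 kb upstream. With peaks of score above 100 or above 200 the cluster density was 7.45 and 5.08 summits per Mb and the median distance to a summit 64290 and 88166 bp, since fewer peaks were counted. The ratio to the rest of chromosome 11 was 0.342 and 0.343. With gaps of up to 1 Mb, which join clusters across other genes, the density was 17.7 per Mb and the ratio 0.558. The density was 8.38 per Mb without other protein-coding genes and the OR genes that their records run over. In subsets chosen after seeing the data, it was 5.53 in clusters without an open gene of another kind and 9.57 without cluster 1. The ratio was 0.699 against outside bins weighted to the GC content of the cluster bins, also chosen after seeing the data. The share of other genes in the clusters with a promoter summit and the ratio of median folds stayed within their counting intervals under the 6 alternatives run for each. A single library of unknown depth, a list that starts at a pileup of 9 and annotated starts that often coincide with the start codon limit all of these values.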
